A study of Gallus gallus with 6 samples.

Results

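The genes described here are those of the RNA-seq table whose symbol starts with ZNF and a digit, or with ZBTB, ZFHX or ZSCAN. They numbered 107 of the 9107 rows, with 77 ZNF genes, 28 ZBTB genes, 2 ZFHX genes and 0 ZSCAN genes. The rule used the symbol only and no measured value, but it was set with earlier results of these data known. By function the label fitted with an exception in the symbols: ZBTB8OS, named for its place opposite ZBTB8, encodes archease, a cofactor of the tRNA ligase, and not a zinc finger protein. Other zinc finger genes, such as the KLF and EGR families, carry other symbols and are not among these genes.

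Most ZNF and ZBTB genes encode zinc finger proteins of the C2H2 class, in which each finger folds around a zinc ion held by cysteines and histidines and a row of fingers reads a stretch of DNA. ZBTB proteins add a BTB domain, which joins proteins into pairs and recruits corepressors such as NCOR1 and histone deacetylases. ZFHX proteins combine zinc fingers with homeodomains. A minority of ZNF proteins work outside promoters, on ribosomes, RNA or the mitotic spindle.

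RNA-seq with stranded mRNA libraries was done on fiber cells from the lenses of White Leghorn chick embryos at embryonic day 13. The untreated group held 3 pools taken at 0 h, and the hypoxia group 3 pools from whole lenses kept for 8 h in 1% O2 in serum-containing Medium 199. Each pool held 10 to 15 lenses, from which the fiber cells were dissected away from the epithelium, and lenses that became damaged or opaque were discarded. Lenses cultured for 8 h at normal oxygen are not among the libraries analysed, and so oxygen and time in culture cannot be told apart. The labels call the pools biological triplicates.

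Levels are normalized counts, that is, read counts scaled by the authors with 1 factor for each library and then rounded. Differences are log2 fold changes of 8 h over untreated on the log2(value + 1) scale, given ± SE, and a gene was called higher or lower at a Benjamini-Hochberg adjusted p under 0.05 from limma fitted to 9105 genes. Depth was estimated at 23.5 M to 32.6 M reads per library over the table's genes. The values of the 107 genes rested on an estimated 14 to 4111 reads each, with a median of 246. In these bulk samples, fewer cells of a type and less RNA per cell cannot be told apart. Of 14 fiber markers 13 had a row, with summed levels of 17826535 to 20052176 normalized counts in untreated pools and 14844438 to 16134212 after 8 h. Most of that sum was ASL1, at 15946488 on average in untreated pools, which did not pass (-0.28, limma adjusted p = 0.0632). Of these 13 markers 11 were called lower and 2, ASL1 among them, did not pass. Of 8 epithelial markers 7 had a row, FOXE3 not being among them, and their sum ran from 8663 to 9373 in untreated pools and from 11501 to 12018 after 8 h, without overlap. Of these 7 markers PAX6 (0.70) and SIX3 (0.71) were called higher and NPNT lower (-0.45, limma adjusted p = 0.00513), and 4 did not pass, among them CDH1 at 0.03 and ITGA6 at -0.01 on the log2 scale. PECAM1, the 1 of 7 endothelial markers with a row, stood at 156 to 179 and then at 22 to 65, and the sum of the mesenchymal markers (2 rows of 8) at 689 to 959 and then at 358 to 419. Both mesenchymal rows were called, PDGFRA lower (-1.57) and COL3A1 higher (1.13, limma adjusted p = 0.000544). Red blood cell markers (2 rows of 10) and retinal markers (1 row of 7) overlapped between the groups, at 198 to 409 and at 27 to 73. The part of these cell types in the zinc finger results was not tested.

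Zinc finger genes were more often higher than lower after 8 h in 1% O2. Of the 107 genes, all of which passed the filter on low values, 48 were called higher, or 44.9%, where 29.4% of all genes tested were, and 9 were called lower, or 8.41%, where 25.7% of all genes were. The other 50 did not pass, or 46.7%, where 44.9% of all genes tested did not. The median log2 fold change of the zinc finger genes was 0.33 (quartiles 0.02 and 0.61), against -0.01 over all genes tested, and 83 of the 107 had a positive value.

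Genes of similar level had shares near those of all genes. Most zinc finger genes are transcripts of modest abundance, with a median untreated level of 206 normalized counts against 361.5 for all genes. Among the 6871 genes with a mean between 65.7 and 1519 normalized counts, the range that holds the middle of the zinc finger genes from the 5th to the 95th percentile, 32.8% were higher and 23.1% lower, with a median of 0.04. Above a mean of 400 normalized counts, 22 of 39 zinc finger genes were higher (56.4%) and 2 were lower, where 29.7% and 28.4% of all genes at that level were. Between 150 and 400 it was 19 of 42 higher (45.2%) and 4 lower (9.52%), where 34.3% and 23.0% of all genes were. Below 150 it was 7 of 26 higher (26.9%) and 3 lower (11.5%), where 23.3% and 23.1% of all genes were. The share of higher genes among the least abundant was thus near the background. Their median log2 fold change was 0.33, however, against -0.07 for all genes below 150. The medians were 0.31 against 0.08 between 150 and 400, and 0.39 against -0.03 above 400.

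The changes were moderate in size. A rise of at least 2-fold was called in 9 genes (8.41%), against 10.2% of all genes tested, and a fall of at least 2-fold in 2 genes (1.87%), against 3.96%. At that size the share of risers was thus no larger than the background. In 56 of the 107 genes all hypoxia pools lay above all untreated pools, where this held for 32.6% of all genes. In 13 they all lay below, where this held for 30.1%. The groups overlapped in 38 of the 107, and in 3394 of all 9106 genes. The summed level of the 107 genes was 42812 to 43388 normalized counts in the untreated pools and 51919 to 55271 in the hypoxia pools. With library totals as the scaling, the median over all genes became 0.20 and that of the zinc finger genes 0.55, so that 67 were higher and 3 lower, and 95.7% of the called zinc finger genes were higher in place of 84.2%. Over all genes that scaling gave 40.1% higher and 10.7% lower, and 78.9% of their calls were rises in place of 53.4%.

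**Figure D1:**
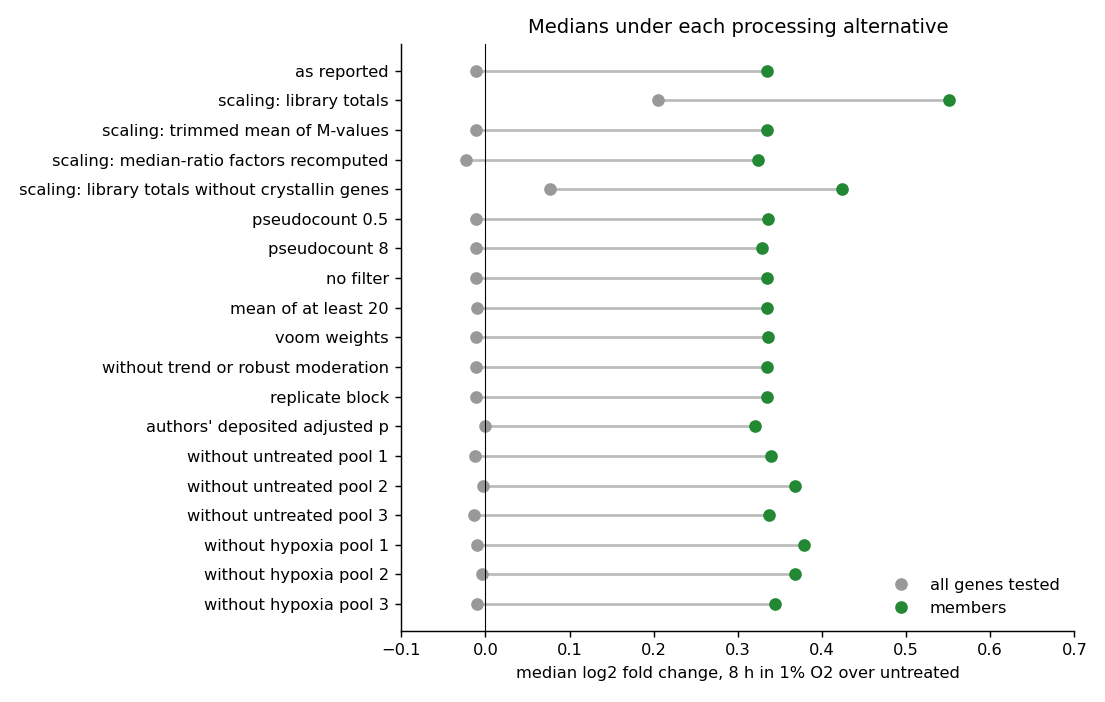
Median log2 fold change of all genes tested (grey) and of the 107 zinc finger genes (green) as reported and under each of the 18 processing alternatives. The green points lie between 0.32 and 0.55, with the grey points to their left, and a change of scaling moves both medians together.

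**Figure D2:**
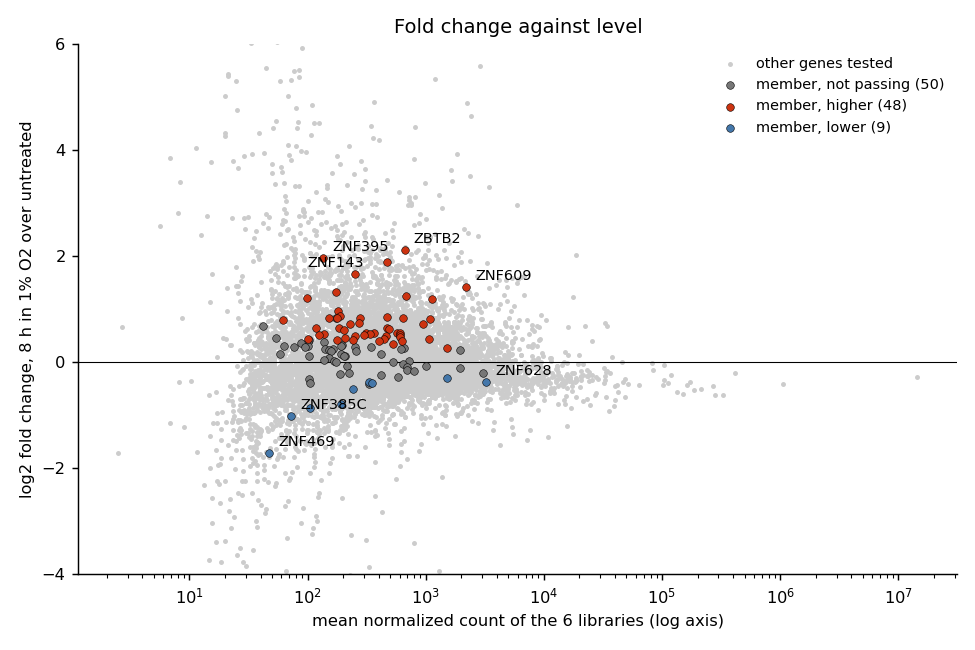
Log2 fold change of 8 h in 1% O2 over untreated, against the mean normalized count of the 6 libraries on a log axis, for each gene tested (grey) and for the 107 zinc finger genes (larger points, colored by call). The 48 red points lie across the range of levels and the 9 blue points include the abundant ZNF628, and 28 other genes lie beyond the plotted range of fold change.

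The gene with the largest rise was ZBTB2, a BTB repressor that binds unmethylated CpG-rich promoters in mouse embryonic stem cells and has been described to raise the activity of the hypoxia-inducible factor HIF-1 in human cancer cells. It stood at 240, 268 and 243 normalized counts in the untreated pools and at 1060, 1069 and 1109 after 8 h. The pools of each group lay close together and the groups were far apart, a 4.30-fold rise (log2 fold change 2.11 ± 0.10, limma adjusted p = 3.37e-08).

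ZNF395 followed, a factor gene known in human cells to be switched on by low oxygen. Its untreated values were uneven, at 82, 55 and 36, while the hypoxia pools stood at 200, 221 and 224, all above them (1.96 ± 0.26, limma adjusted p = 0.000124). Leaving out any single pool kept the call.

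ZNF143, an activator of small nuclear RNA genes and of many mRNA promoters, rose nearly as far from a higher level. Its untreated pools held 176, 220 and 203 normalized counts and its hypoxia pools 720, 718 and 794 (1.90 ± 0.12, limma adjusted p = 2.31e-07). ZNF148, also called ZBP-89, which binds GC-rich promoters, went from 57, 51 and 69 to 121, 148 and 144 (1.21 ± 0.19). Neither gene had overlapping groups. The genes with the largest called rises and falls were picked by their calls, so separate groups among them are no further result. Over all genes, all hypoxia pools lay above in 32.6% and below in 30.1%.

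ZNF609, which works with Integrator and the cohesin loader in mouse neural progenitors, was the most abundant of the strong risers. It went from 1310, 1091 and 1185 to 3298, 3243 and 2989 normalized counts (1.41 ± 0.10, limma adjusted p = 4.97e-07). ZNF516, an activator of the thermogenic gene UCP1 in mouse brown fat, went from 394, 429 and 384 to 891, 1040 and 941 (1.25 ± 0.10). ZNF423, a partner of SMAD proteins in BMP signalling and a regulator of fat and cerebellar precursors in mice, went from 692, 716 and 638 to 1531, 1736 and 1415 (1.19 ± 0.10). In all 3 genes every hypoxia pool was above every untreated pool.

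ZNF302 and ZNF654 completed the 8 ZNF genes with the largest rises. ZNF302 went from 130, 117 and 118 normalized counts to 258, 206 and 251 (0.96 ± 0.14), and ZNF654 from 152, 125 and 118 to 206, 295 and 226 (0.87 ± 0.17). Their groups did not overlap either.

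Among the ZBTB genes, ZBTB21, a transcriptional repressor, came after ZBTB2. It stood at 111, 122 and 124 in the untreated pools and at 314, 518 and 330 after 8 h (1.66 ± 0.18, limma adjusted p = 2.70e-05), with hypoxia pool 2 well above the other hypoxia pools. ZBTB8A went from 101, 105 and 93 to 260, 241 and 251 (1.32 ± 0.13), ZBTB26 from 325, 376 and 300 to 572, 656 and 584 (0.86 ± 0.11). ZBTB48, or TZAP, a protein that binds telomere repeats and trims long telomeres in human cells, went from 112, 106 and 110 to 183, 190 and 214 (0.83 ± 0.14). In each of these the groups were separate.

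**Figure D3:**
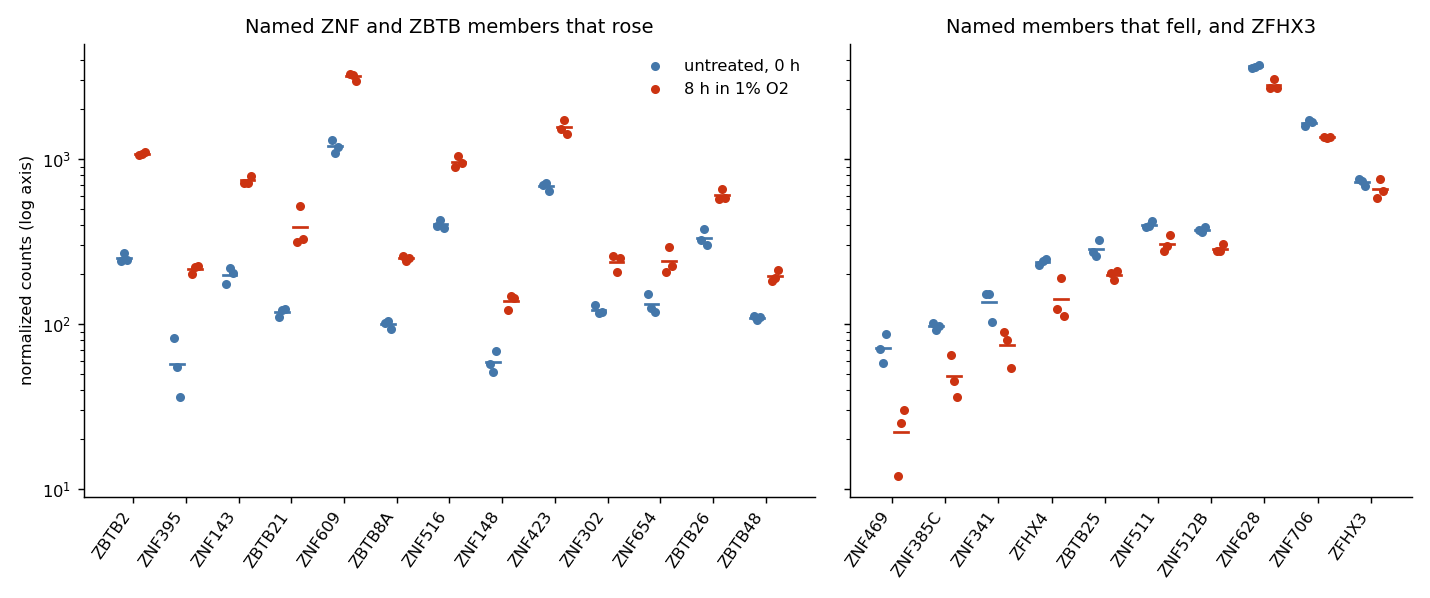
Normalized counts on a log axis in each pool of untreated (blue) and 8 h hypoxia (red) lens fiber cells, for the genes with the largest called rises (left) and the genes called lower together with ZFHX3 (right), with a horizontal line at each group mean (n = 3 pools). The groups are apart for every gene shown except ZFHX3, and the distance is widest for ZBTB2 (250 to 1079 on average). Apart from the ZFHX genes, those shown were picked by their calls, so their separation is no further result. Over all genes, all hypoxia pools lay above in 32.6% and below in 30.1%.

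The 28 ZBTB genes had a median log2 fold change of 0.39 and included 13 higher genes, 14 that did not pass and 1 lower gene, or 2 lower without hypoxia pool 2. Those with known roles at telomeres, at centromeres or in DNA damage were 3 higher of 4 measured, with 0 lower (limma, also 0 at an unadjusted p under 0.05 and 0 with voom), beside 29.4% higher and 25.7% lower over all genes. ZBTB10, which binds variant telomere repeats, went from 209, 189 and 200 normalized counts to 297, 391 and 379 (0.82 ± 0.13), and ZBTB1, which helps cells replicate past damaged DNA, rose by 0.56 ± 0.11 on the log2 scale. ZBTB24, needed for DNA methylation at centromeres in humans and mice, stood at 138, 139 and 141 and then at 164, 163 and 163 (0.23 ± 0.13, 95% interval -0.06 to 0.52). Its groups did not overlap but it did not pass (limma adjusted p = 0.163). Its pools varied little, with an SD of 1.53 normalized counts untreated and 0.577 after 8 h. The SE and interval given are the moderated ones, which draw on genes of similar level.

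Of the 2 measured readers of methylated CpG, 1 was called higher and 1 did not pass. Over all genes 29.4% were higher and 25.7% lower. ZBTB33, or Kaiso, was at 506, 524 and 451 normalized counts before and at 716, 802 and 649 after (0.55 ± 0.11, limma adjusted p = 0.00152). ZBTB38 was at 236, 253 and 230 and then at 209, 205 and 210 (-0.20 ± 0.12, limma adjusted p = 0.158), so its pools lay lower without passing. The difference between these responses was not tested.

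Regulators of cell lineage among the ZBTB genes gave 2 higher of 4 measured and 0 lower (limma, 0 at an unadjusted p under 0.05 and 0 with voom), where the shares over all genes were 29.4% and 25.7%. ZBTB18, a repressor needed for neuron differentiation in mice, went from 489, 506 and 508 to 727, 695 and 678 normalized counts (0.48 ± 0.09). ZBTB7A, a repressor of fetal globin genes and, in human cancer cells, of glycolysis genes, went from 255, 244 and 243 to 377, 342 and 335 (0.50 ± 0.11). ZBTB17, the MYC partner MIZ1, was at 0.26 ± 0.11 and ZBTB46, a dendritic cell factor in mice, at 0.03 ± 0.11 on the log2 scale, and neither passed. The single ZBTB gene called lower was ZBTB25, a repressor of NFAT targets in human T cells, which went from 275, 257 and 321 to 203, 184 and 209 (-0.51 ± 0.13, limma adjusted p = 0.00586). With library totals ZBTB25 did not pass (-0.29, limma adjusted p = 0.075, with 0.00378 to 0.075 over its alternatives). ZBTB8OS, the archease gene, was at 589, 768 and 783 before and 606, 641 and 749 after (-0.09 ± 0.13), with overlapping groups.

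**Figure D4:**
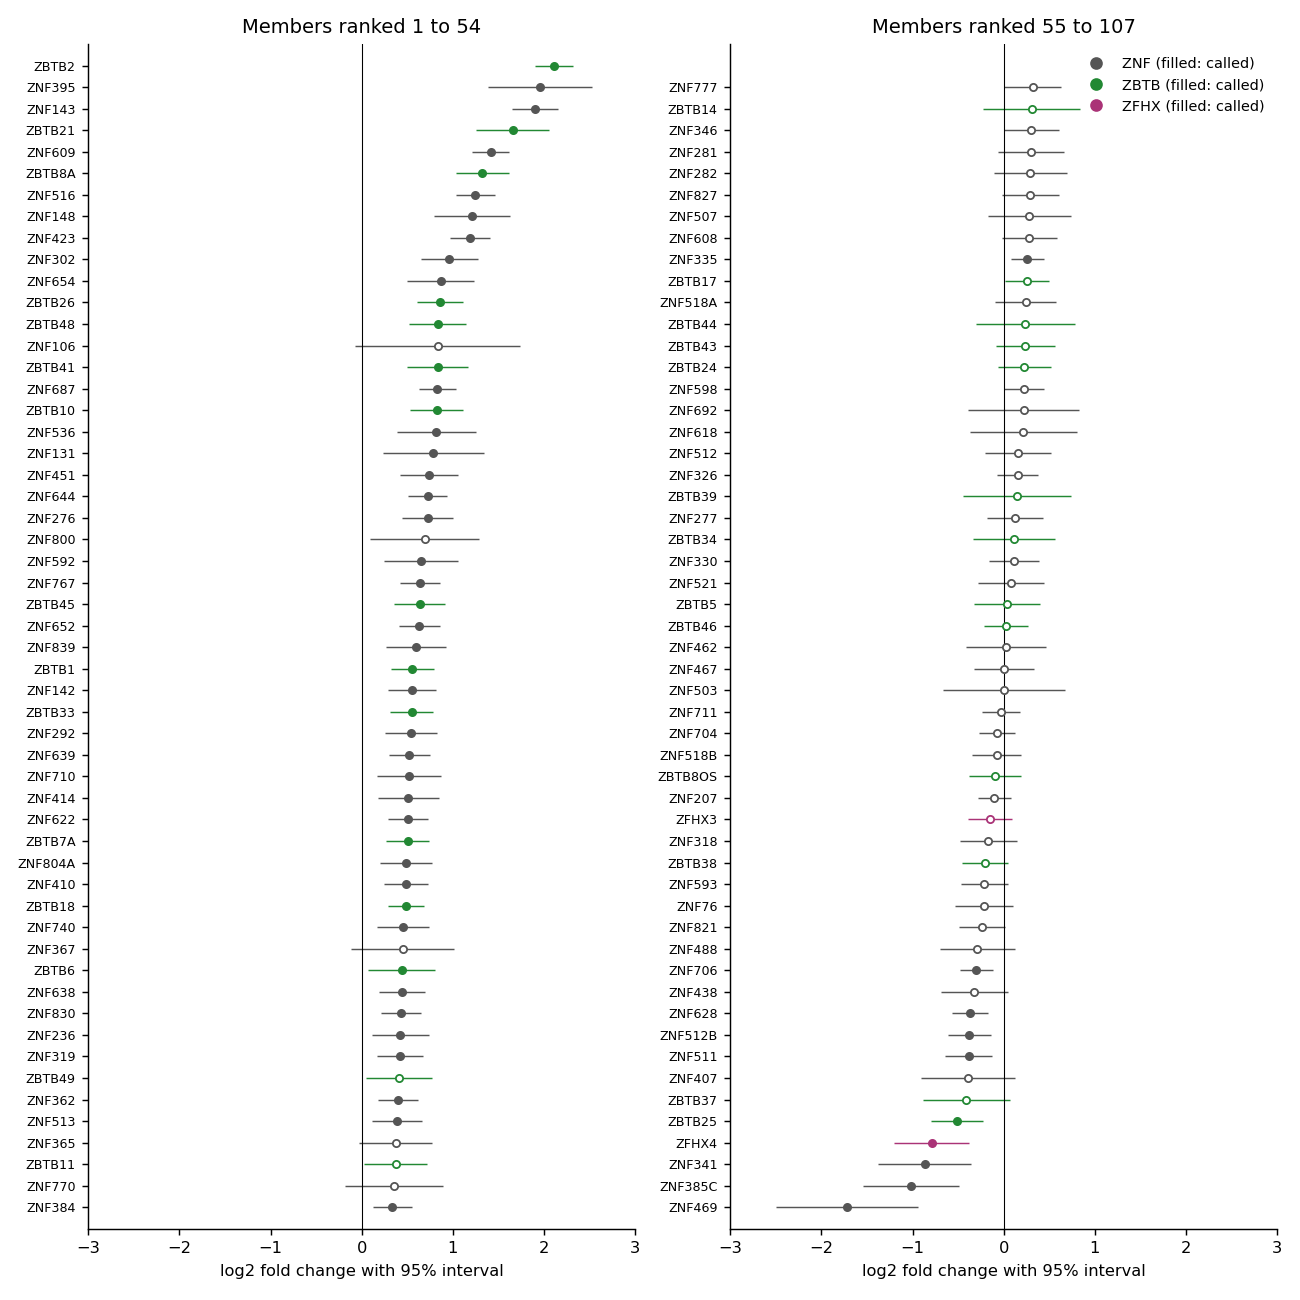
Log2 fold change of 8 h in 1% O2 over untreated with its 95% interval from limma for each of the 107 zinc finger genes, ranked from 1 to 54 (left) and from 55 to 107 (right), with filled points for called genes and colors for the ZNF, ZBTB and ZFHX families. The values run from 2.11 for ZBTB2 to -1.72 for ZNF469, and 83 of 107 are positive.

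The ZNF factors grouped here as promoter activators, a label that was not checked for each gene, had 8 members measured. They gave 6 higher and 0 lower (limma, 0 lower at an unadjusted p under 0.05 and 0 with voom) and a median log2 fold change of 0.43. Over all genes 29.4% were higher and 25.7% lower. Besides ZNF143 and ZNF148 the higher ones were ZNF410, which in human and mouse cells acts mainly on the NuRD subunit gene CHD4 (0.48 ± 0.11), ZNF740 (0.45 ± 0.13), ZNF362 (0.40 ± 0.10) and ZNF384 (0.33 ± 0.10). ZNF281 and ZNF76 did not pass, at 0.30 ± 0.16 and -0.22 ± 0.14. ZNF76 is the closest relative of ZNF143, so the values of this pair lay on either side of 0.

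The ZNF proteins of chromatin complexes gave 7 higher genes, 1 lower gene and 6 that did not pass among 14 measured, or 50.0% higher and 7.14% lower beside 29.4% and 25.7% of all genes. Besides ZNF609 and ZNF516, ZNF687 went from 458, 438 and 486 normalized counts to 846, 807 and 803 (0.83 ± 0.09), and ZNF592, its partner in a complex with ZMYND8, from 81, 91 and 102 to 155, 164 and 116 (0.65 ± 0.18). ZNF644, which brings the histone H3 lysine 9 methyltransferases G9a and GLP to DNA, went from 698, 707 and 720 to 1041, 1276 and 1206 (0.72 ± 0.10). ZNF451, a SUMO ligase, rose by 0.73 ± 0.14 and ZNF335, a component of a histone H3 lysine 4 methyltransferase complex, by 0.26 ± 0.08 on the log2 scale. ZNF512B, which binds the NuRD complex, was the lower gene, at 370, 360 and 387 and then 277, 278 and 306 (-0.38 ± 0.11), a call that ended with library totals (-0.16, limma adjusted p = 0.238, with 0.00966 to 0.238 over its alternatives).

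The ZNF genes grouped under RNA and ribosomes included most of the 5 most abundant zinc finger genes. The group also held ZNF207 and ZNF706, which are described below by other roles. It gave 3 higher genes among 12, 1 lower gene (ZNF706) and 8 that did not pass, with a median of 0.14. The share of higher genes, 25%, was below the 29.4% of all genes, and that of lower genes, 8.33%, was below their 25.7%. With library totals 7 of the 12 were higher, where 40.1% of all genes were. Higher were ZNF622, the relative of a yeast factor that finishes the large ribosomal subunit (481, 558 and 466 normalized counts before, 714, 683 and 736 after, 0.51 ± 0.10), the spliceosome gene ZNF830 (358, 370 and 404 before, 483, 533 and 508 after, 0.43 ± 0.10) and ZNF638, an RNA-binding nuclear protein gene (0.44 ± 0.11). The 5 most abundant zinc finger genes in untreated pools were ZNF628, ZNF593, ZNF207, ZNF598 and ZNF706, of which ZNF628 and ZNF706 were called lower and the other 3 did not pass.

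ZNF628 went from 3577, 3608 and 3738 to 2679, 3069 and 2706 normalized counts (-0.37 ± 0.09), and ZNF706, a small protein that helps mouse stem cells leave self-renewal, from 1586, 1730 and 1679 to 1355, 1338 and 1360 (-0.30 ± 0.08). Their groups did not overlap, and both calls ended with library totals (limma adjusted p = 0.186 and 0.396, with 0.00175 to 0.186 and 0.00657 to 0.396 over their alternatives). ZNF593, a ribosome assembly protein gene, was at 3023, 3131 and 3728 and then at 3078, 2450 and 3015 (-0.21 ± 0.12), with overlap. ZNF207, or BUGZ, a spindle protein, was at 2095, 1970 and 2011 and then at 1946, 1882 and 1822 (-0.10 ± 0.08, 95% interval -0.29 to 0.08). ZNF598, the ubiquitin ligase that marks collided ribosomes, was at 1724, 1820 and 1865 and then at 1853, 2318 and 2183 (0.23 ± 0.10, limma adjusted p = 0.0734). ZNF598 passed when hypoxia pool 1 was left out (0.32), with the replicate block and with either form of library totals, and its adjusted p ran from 0.00379 to 0.214 over its alternatives.

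Developmental regulators moved both ways, with 3 of 8 measured higher (37.5%), 2 lower (25%) and 3 not passing, and a median of 0.04. These shares were close to the 29.4% and 25.7% of all genes. Alongside ZNF423, ZNF536, a repressor of neuron differentiation, went from 890, 727 and 727 to 1147, 1889 and 1184 normalized counts (0.81 ± 0.19), with hypoxia pool 2 far above the others, and ZNF804A rose by 0.48 ± 0.13 on the log2 scale. ZFHX4 fell from 229, 242 and 247 to 123, 191 and 112 (-0.79 ± 0.19, limma adjusted p = 0.0045). ZFHX3, also called ATBF1, which in mice sets the period of the circadian clock in the brain, stood at 759, 735 and 688 and then at 577, 756 and 642 (-0.15 ± 0.11, limma adjusted p = 0.266), with overlapping groups. ZNF385C went from 101, 92 and 98 to 65, 45 and 36 (-1.02 ± 0.24), all hypoxia pools being below.

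The largest fall of any zinc finger gene was that of ZNF469, which is mutated in human brittle cornea syndrome. It stood at 71, 58 and 87 normalized counts in the untreated pools and at 12, 25 and 30 after 8 h (-1.72 ± 0.35, limma adjusted p = 0.00182). The hypoxia values rested on an estimated 13.9, 31.7 and 32.8 reads, and the groups were apart. The other genes linked to human eye disease with a row, ZNF644 (myopia, given above) and ZNF513 (retinal degeneration), were higher, ZNF513 by 0.39 ± 0.12 on the log2 scale. ZNF513 did not pass without untreated pool 1 or 2 or without hypoxia pool 1 or 3, which left 1 of these 3 genes higher. With all pools, 29.4% of all genes were higher and 25.7% lower.

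The remaining falls were smaller. ZNF341, an activator of the STAT3 gene in human cells, went from 153, 152 and 103 to 90, 80 and 54 normalized counts (-0.87 ± 0.23), and with library totals it no longer passed (-0.65, limma adjusted p = 0.0526, with 0.00143 to 0.0526 over its alternatives). ZNF511 went from 388, 391 and 423 to 277, 297 and 349 (-0.39 ± 0.12). Its call ended without untreated pool 3 (-0.35) and with library totals (-0.17), also when crystallins were left out of the totals (-0.30), and its adjusted p ran from 0.00683 to 0.244 over its alternatives.

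The zinc finger gene with the largest p among those with a mean of at least 200 was ZNF467, at 608, 414 and 572 normalized counts before and 566, 459 and 558 after (0.003 ± 0.15, 95% interval -0.33 to 0.34). Its mean was level while its pools varied in each group. Pools differed most in ZNF106, which stood at 112, 142 and 98 and then at 117, 211 and 359, and in ZNF503, at 176, 168 and 164 and then at 190, 101 and 253. These were picked as the widest spread in the hypoxia group, 3.07-fold and 2.50-fold from lowest to highest, against a median of 1.23-fold over the 107 genes. ZNF106 did not pass here (0.83 ± 0.38, limma adjusted p = 0.104), while the authors' deposited table gives it an adjusted p of 0.00724. At the same threshold the authors' deposited table has 47 of the 107 genes higher (43.9%) and 9 lower (8.41%). By that measure 28.1% of all genes with an adjusted p were higher and 22.4% lower. The authors' calls share 46 higher and 9 lower zinc finger genes with the present fit. Besides ZNF106 the difference lies in ZBTB6 and ZNF236, which were called higher by limma and not in the authors' deposited table.

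Hypoxia pool 2 was the highest of the hypoxia pools in 43 of the 107 genes (40.2%), against 31.2% of all genes, and hypoxia pool 1 the lowest in 43 (40.2%), against 29.1%. ZBTB44 showed this order, at 523, 598 and 532 normalized counts before and 452, 921 and 657 after (0.24 ± 0.23). Leaving out hypoxia pool 2 gave 47 higher and 11 lower zinc finger genes, and leaving out hypoxia pool 1 gave 49 and 10. Of all genes, 28.0% were higher and 23.0% lower without hypoxia pool 2, and 28.2% and 24.7% without hypoxia pool 1.

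In gene order by RefSeq on assembly GRCg7b, where 101 of the 107 symbols were found, 3 pairs of these genes are direct neighbours among protein-coding genes. ZBTB6 and ZBTB26 were both called higher, by 0.44 ± 0.17 and 0.86 ± 0.11 on the log2 scale, and so were ZNF236 and ZNF516, by 0.42 ± 0.14 and 1.25 ± 0.10. The limma adjusted p was 0.0424 for ZBTB6 and 0.0252 for ZNF236, and neither was called in the authors' deposited table. ZBTB43 and ZBTB34 did not pass, at 0.24 ± 0.15 and 0.12 ± 0.21. The share of all genes called higher was 29.4%. Whether the genes of a pair overlap was not examined. The sources used here do not say whether counting used the strand, so reads may have been shared if they do overlap. This was not tested.

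Other zinc finger genes and the partners of these proteins are given beside the 107 genes as counts. Of 69 C2H2 factors listed with other symbols (KLF and EGR genes aside), 39 had a row. Of these, 22 were higher and 2 lower, with a median log2 fold change of 0.41. The higher ones include ZFPM2 (0.33 and then 40 normalized counts on average) and SNAI1 (1 and then 39), both at the floor untreated. ZFPM2 passed the filter on low values only through its hypoxia pools. BTB zinc finger genes with symbols other than ZBTB gave 3 higher and 1 lower of 5, with a median of 0.54. Corepressors and other partners that zinc finger repressors recruit gave 16 higher and 1 lower of 32, with a median of 0.32. Zinc finger families of other folds, such as the ZC3H, ZDHHC and ZFYVE genes, gave 25 higher and 12 lower of 69, with a median of 0.16. The share of higher genes in these 4 lists was 56.4%, 60.0%, 50.0% and 36.2%, and that of lower genes 5.13%, 20%, 3.12% and 17.4%, beside 44.9% and 8.41% for the 107 genes and 29.4% and 25.7% for all genes. The shares in families of other folds lay near the 32.8% and 23.1% of genes at the zinc finger genes' range of level, and no difference between lists was tested. The counts of lower genes moved when single pools were left out: the C2H2 factors had 1 lower gene without untreated pool 1, 2 or 3 or hypoxia pool 1 or 3 and 3 without hypoxia pool 2, the BTB genes had 2 without untreated pool 1, and the corepressors had 0 without untreated pool 1 or 2 and 2 without hypoxia pool 2.

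**Figure D5:**
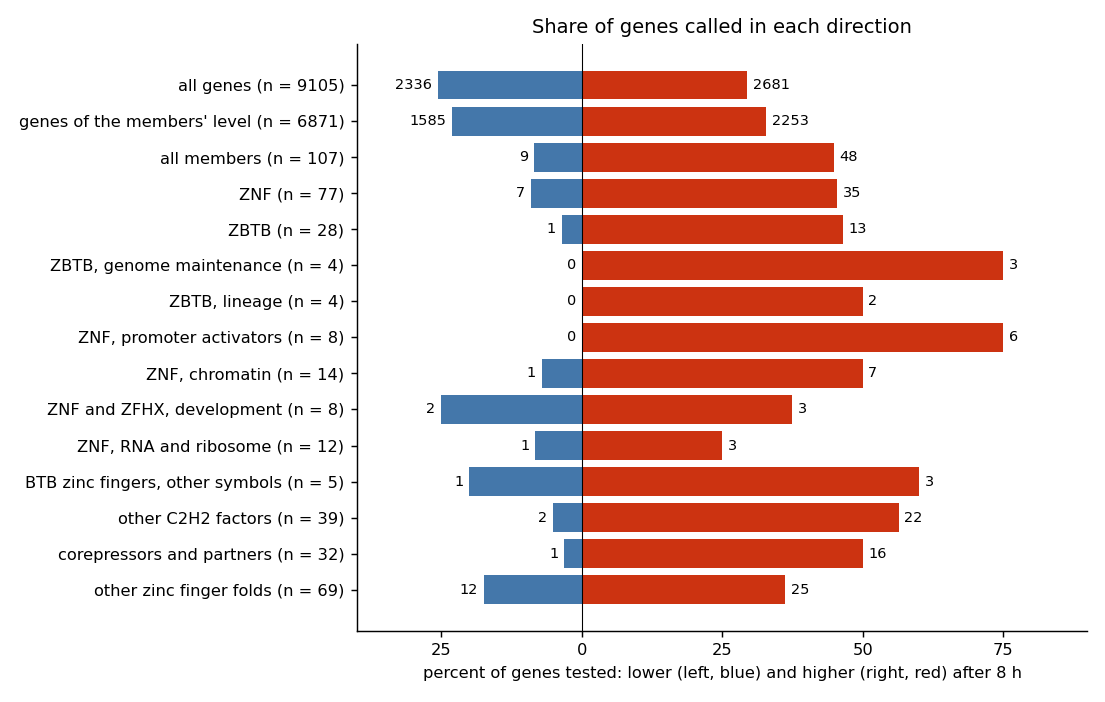
Percent of genes called lower (left, blue) and higher (right, red) after 8 h in 1% O2, with the number of genes beside each bar, for all genes, genes of similar level, the zinc finger genes and their families and role lists, and 4 comparison lists. The 107 zinc finger genes show 48 higher and 9 lower, and the 9105 genes tested show 2681 and 2336.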

How the data were processed

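The authors deposited a table with a score per gene and library, and the values show that these scores are read counts scaled with 1 factor for each library and then rounded. Each library's median ratio to the gene-wise geometric mean was between 0.992 and 1.016, and the untreated columns skip whole numbers at regular steps. The size factors (0.744 to 1.27) were estimated for each library from how often each whole number occurred. Multiplying the values by them gave estimated reads. The deposited table also holds the authors' shrunken log2 fold change and adjusted p-value, per the file headers. The genome build was galGal6, per the submitters' processing notes, which also name STAR, HISAT2, Bowtie2, StringTie, cutadapt, edgeR and DESeq2 without saying what each did. Neither the annotation nor the counting program is given in the sources used here. Of 9107 rows, 1 (METTL16) held a value that was not whole and was left out, and 0 columns belonged to unknown samples.

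Because the values are not raw counts, no count model was run. The test was limma 3.58.1 (R 4.3.3) on log2(value + 1) for the 9105 genes with a mean of at least 1. The model held the group alone, with robust moderation and a trend of variance with mean. It was tried on simulated data in which far fewer genes changed than were called here, so that trial does not cover data like these. Intervals are the 95% intervals of the limma fit to the 6 libraries. They and the SE rest on the spread between pools after moderation toward that of genes of similar level. Named genes were the 8 ZNF and 5 ZBTB genes with the largest called rises and falls at a mean of at least 20, all ZFHX and ZSCAN genes, the 5 most abundant, the 2 with the smallest p in each role list and the least changed; others were chosen after their values were seen. The genes and lists were chosen with earlier results of these data known. Lists are described by counts and medians, with no test of a list. The 18 alternatives covered scaling, pseudocount, filter, voom, moderation, a replicate block, the authors' adjusted p and leaving out each pool. Promoter and protein sequences were not used here.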

Additional observations from a re-analysis of the deposited data

How the results depend on the processing

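Most counts kept within 1.5 times their value under the 18 alternatives. Higher zinc finger genes numbered 42 to 67 and lower ones 3 to 11, and in every alternative but 1, library totals, lower ones numbered at least 8. Of all genes, the alternatives gave 25.8% to 40.1% higher and 10.7% to 27.8% lower. With library totals 3 zinc finger genes were lower, among them 2 ZNF and 0 ZBTB genes (limma, 1 at an unadjusted p under 0.05), as were 3 in the role lists together, 7 in the comparison lists together and 976 of all genes, while 67 zinc finger genes were higher and 78.9% of all calls were rises in place of 53.4%. Under that scaling the all-gene median log2 fold change lay 0.22 above its reported value. All 48 higher genes kept their call under each of the 4 scalings tried. The all-gene median moved by -0.0006 with trimmed means of M-values and by -0.012 with recomputed median ratios. It moved by 0.088 with library totals without crystallins and by 0.22 with library totals. Each scaling thus left that median nearly in place or raised it, so these scalings could not test whether the rises hold. None of the 57 called genes changed sign in any alternative. Leaving out each pool in turn gave 42 to 49 higher and 8 to 11 lower zinc finger genes, 30 to 35 and 6 to 8 ZNF genes, and 12 to 14 and 1 to 2 ZBTB genes. In these fits 39.3% to 45.8% of the zinc finger genes were higher and 7.48% to 10.3% lower. Of all genes it was 25.8% to 28.2% higher and 18.8% to 24.7% lower. Of 29 named genes that were called, 23 were called in all alternatives. The other list counts stayed within 1.5 times in 404 of 432 recomputations.

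The replicate block, with pool numbers as pairs, gave 49 higher and 11 lower zinc finger genes and 2 lower ZBTB genes. With that block 45.8% of the zinc finger genes were higher and 10.3% lower, beside 30.6% and 27.8% of all genes. Same-numbered pools correlated at 0.12, 0.11 and 0.02 in their deviations from the group means, so the numbers were not taken to pair the samples, and untreated pool 3 did not correlate best with its own number. Depth limits most the 7 genes with a pool under 30 estimated reads, among them ZNF469 and ZNF395.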
